A study of Nothobranchius furzeri with 24 samples.

Results

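The transcripts described here are the 300 longest of those expressed in the brain of wild turquoise killifish (Nothobranchius furzeri), an annual fish of temporary African ponds. Length was read from the deposited tables, as the sum of a gene's RPM (reads scaled to the size of the library) over all fish divided by the sum of its RPKM (the same value per kilobase). A gene counted as expressed when its median RPM over the 24 fish was 1 or more, which held for 17355 of 26739 genes, and the 300 longest of these ran from 11334 to 88546 bases. The choice used length and overall level only, and no difference between ages or sexes entered it.

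Brains of fish caught in the wild, from the population A41, were sequenced at 39, 73 and 108 days post hatch (dph), with 4 females and 4 males at each age and 1 library per fish. The paper states that the brain was taken entire for captive fish, and does not say so for wild fish. The labels give no treatment and no genetic change, and the groups differed by age and sex. The ages were netted from the pond as the season went on, so age and date of capture cannot be told apart, and ages were estimated from pond flooding and ear-stone rings. A brain is a mixture of cells, so fewer cells of a type and less RNA per cell cannot be told apart either.

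Length here is the value behind the authors' RPKM, which the paper took from the read counter featureCounts. Whether it is that of a single annotated RNA was not looked at, and neither was protein size. Among genes with very long messenger RNAs are those for some of the largest proteins of a cell. In the brain these include the spectrins, plakins and nesprins that tie the cytoskeleton together, the scaffolds Piccolo and Bassoon of the presynaptic active zone, the pore-forming subunits of calcium channels, the giant cadherins of the Fat and Dachsous families, and enzymes that modify or remodel chromatin. Long transcripts also collect more reads than short ones at the same number of molecules, so their counts carry a smaller sampling error.

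Libraries held between 14219725 and 19346170 reads assigned to genes, except for those of 2 fish of 39 dph, female 12 with 4595506 and male 11 with 10019750. All 300 long transcripts passed the filter on low counts that left 19358 genes for testing. A human gene name was found for 180 of them in the study's supplementary tables, against 7356 of the 19358 genes tested. Those tables were assembled by the study around genes that differed in its comparisons, so the named genes lean towards genes that changed. Neuronal markers were plentiful, with the summed level of 14 genes of that list between 5319 and 6351 CPM (reads scaled to library size and composition) in all 24 fish, while the only skeletal muscle marker matched, TNNT3, had at most 28.3 CPM. The only pituitary marker matched, GH1, ran from 1.87 to 4414 CPM between fish. NEUROD1, of the list for dividing progenitors, had 183 CPM in 73 dph male 11 and 742 to 962 in the other fish of that age. Whether the samples covered the same parts of the brain was not tested. Between 39 and 108 dph 7 of the 14 neuronal marker genes fell and 3 rose. The long transcript RBFOX3 (Nfu_g_1_019634) was among those that fell (log2 fold change -0.24). Of the shorter genes of that name, Nfu_g_1_013866 rose (0.27) and Nfu_g_1_016583 was not called (0.12). Of marker genes of other cells, 5 of 6 of dividing progenitors and 4 of 8 of oligodendrocytes fell, and of 7 of radial glia and astroglia 3 fell and 2 rose.

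The median RPM of the long transcripts was 76.0, against 21.2 for expressed genes in general, while their median RPKM of 5.41 lay below the general 8.23. On the scale per kilobase they were thus slightly under the typical gene, and their higher read numbers came with their length. Between fish of 1 group the median biological coefficient of variation was 12.2% for the long transcripts and 15.9% for all genes tested. For comparison, each long transcript was paired with the unused gene nearest in median RPM among genes of middle length (the 40th to 60th percentile, 2208 to 3465 bases), and the 300 paired genes had a median RPM of 76.0 and a coefficient of variation of 12.04%.

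Between 39 and 108 dph, 62 of the 300 long transcripts rose and 72 fell at a false discovery rate (FDR, the Benjamini-Hochberg adjusted p of edgeR's quasi-likelihood F test over all genes tested) below 0.05. Together these 134 were 44.7% of the long transcripts, against 38.0% of all genes tested, of which 19.0% rose and 19.0% fell. Among the paired middle-length genes 54 rose and 87 fell, or 47.0%. The expressed genes from which the long transcripts were drawn stood at 40.5%. Among genes with a human name the order was different, with 53.9% of the long transcripts called and 57.2% of all such genes tested. The median log2 fold change of the long transcripts was -0.03, beside -0.04 in the paired genes and -0.00 over all genes tested. The median of the long transcripts thus lay near those of the other genes, while individual members moved in both directions. Whether the group stayed level was not tested.

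The changes were mostly small. The median size of the log2 fold change was 0.19 among the long transcripts and 0.25 among all genes tested, and the median standard error (SE) was 0.08 and 0.12 respectively. Among the 134 called transcripts the median size was 0.33, and 6 of them changed more than 2-fold. Within the 300 the number called differed little with length: 47, 42 and 45 were called among the longest, middle and shortest 100. The median log2 fold changes of these sets were -0.07, -0.04 and 0.02. Spearman's rank correlation between length and log2 fold change was -0.01 across these 300 genes, which share their libraries and are not independent replicates.

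**Figure D1:**
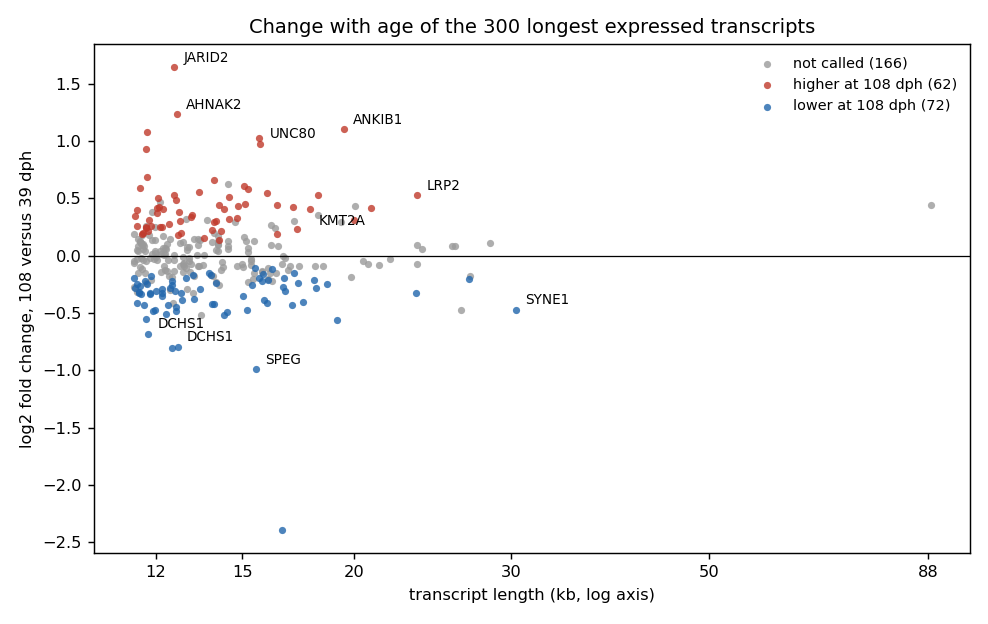
Log2 fold change between 39 and 108 dph (vertical axis) of each of the 300 longest expressed transcripts against its length in kilobases (horizontal, log axis), with called transcripts in red (62 higher) or blue (72 lower) and the other 166 in grey. Rises and falls lay side by side up to the length of LRP2 (23.5 kb). Of the longer members, SYNE1 (Nfu_g_1_021820) and DST (Nfu_g_1_012338) fell and the others were not called. The unlabelled lowest point is Nfu_g_1_002766 at -2.39.

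Across all expressed genes ranked by length the share called between 39 and 108 dph went from 34.9% in the shortest of 10 equal bins to 45.3% in the longest. The median SE went the other way, from 0.12 to 0.08. The median log2 fold change was -0.04 in the shortest bin and 0.01 in the longest. Rises accounted for most of the gradient, with 251 of 1735 genes in the shortest bin and 420 of 1736 in the longest, whereas falls numbered 355 and 366. Depth of counting differed along the same axis, with a median RPM of 10.8 in the shortest bin and 57.6 in the longest, and its part in the gradient was not tested.

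**Figure D2:**
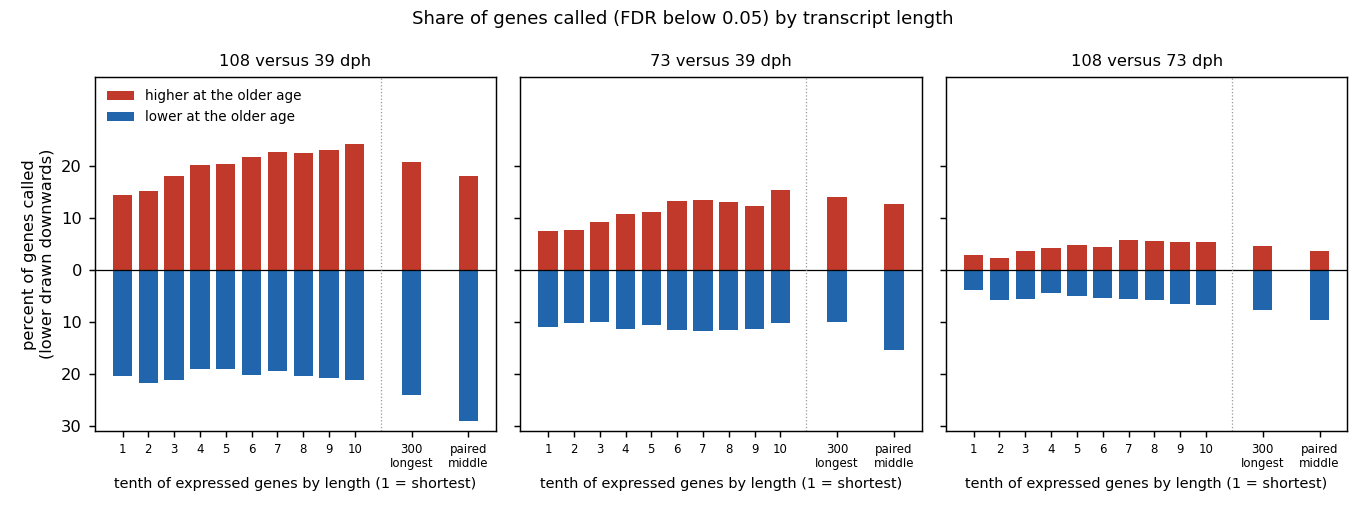
Percent of genes called at an FDR below 0.05 (vertical axis, higher at the older age upwards in red and lower downwards in blue) for expressed genes in 10 equal bins of length (1, shortest), for the 300 longest and for the 300 paired middle-length genes, in each of 3 age comparisons. Between 39 and 108 dph the share called in either direction rose from 34.9% in the shortest bin to 45.3% in the longest and was 44.7% in the 300 longest.

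The first and the second age step were also taken on their own. Between 39 and 73 dph 42 long transcripts rose and 30 fell, or 24.0%, where 20.7% of all genes tested were called (10.4% higher and 10.3% lower). Between 73 and 108 dph 14 rose and 23 fell, or 12.3%, where the background was 9.27% (4.27% higher and 5.01% lower). Without 1 fish, 73 dph male 7, the number that fell in this second step was 15. The paired middle-length genes had 38 rises and 46 falls in the first step and 11 and 29 in the second. Median log2 fold changes of the long transcripts were 0.00 and -0.02, and the median sizes were 0.14 and 0.13. The steps share the fish of 73 dph, so their values are given side by side and not related to each other.

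RNA integrity, as listed by the study for each library, was high throughout but lower at the older ages. With the RNA integrity number as a covariate, 22 long transcripts rose and 14 fell between 39 and 108 dph, where 11.5% of all genes tested were then called. In the first age step 18 then rose and 6 fell, against 42 and 30 without the covariate, and in the second 6 and 8, against 14 and 23. For the single steps the share of all genes called with the covariate is not given here. All 134 transcripts called over the whole span without the covariate kept their direction, and 36 of them stayed called. The median SE of the long transcripts went from 0.08 to 0.16 in that fit. Among the members that stayed called as higher were JARID2, UNC80, SNPH, AKAP9, CACNA1B, LRP2, KMT2A and ATM. Among those that stayed called as lower were both DCHS1 genes, TET3, CPSF6, RAPH1, MCF2L2, CELSR3 and CHD5. Not every member that stayed called is named here. How much of the change with age went with RNA integrity cannot be told apart in these libraries.

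The level of the long transcripts was also followed fish by fish, as their median log2 CPM minus that of the paired middle-length genes. The fish of 39 dph had a difference of -0.02 ± 0.05 (SD, n = 8), those of 73 dph one of 0.03 ± 0.04 (SD, n = 8) and those of 108 dph one of 0.02 ± 0.03 (SD, n = 8). The lowest fish, 39 dph male 3, had -0.09 and the highest, 73 dph male 1, had 0.10. The ages overlapped. Set against a pooled SD of 0.0404 within ages, the means of 39 and 108 dph were 0.0360 apart, under that SD, and the means of 39 and 73 dph 0.0506 apart, above it. Each set was also taken alone, as the median deviation of its genes from their own means over all fish. At 39, 73 and 108 dph this averaged 0.0060, 0.0084 and -0.0138 in the long transcripts. In the paired genes it averaged 0.0342, 0.0035 and -0.0261, so from 39 to 73 dph the paired genes moved more than the long transcripts. None of these differences was tested. Of the assigned reads, the long transcripts took 3.50% ± 0.15 (SD, n = 8) in the fish of 39 dph, 3.64% ± 0.10 (SD, n = 8) in those of 73 dph and 3.60% ± 0.22 (SD, n = 8) in those of 108 dph. This share ran from 3.29% to 4.00% over all fish, again with overlapping ages.

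**Figure D3:**
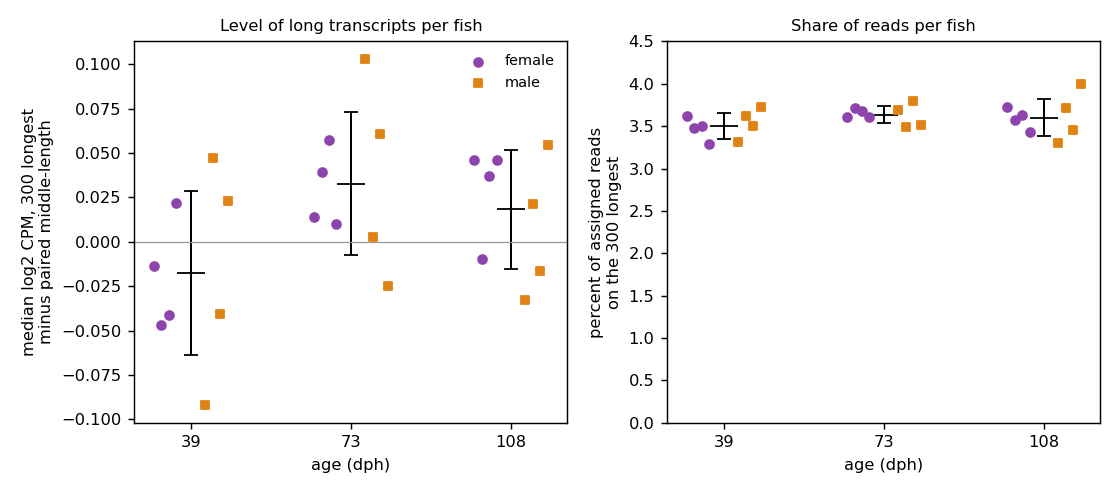
Left, median log2 CPM of the 300 longest transcripts minus that of the 300 paired middle-length genes, and right, percent of assigned reads on the 300 longest, in each fish against age (circles, females; squares, males; bars, mean and SD of 8 fish). The 3 ages overlap on both axes, and fish range from -0.09 to 0.10 on the left and from 3.29% to 4.00% on the right.

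Of the 10 longest members, only SYNE1 (Nfu_g_1_021820) and DST (Nfu_g_1_012338) were called between 39 and 108 dph, and both fell. The lack of a call in the others does not show a steady level. The SE of the log2 fold change was 0.43 for Nfu_g_1_018557 and 0.34 for Nfu_g_1_019261. The longest, Nfu_g_1_019261 with 88546 bases, has no human name in the tables used here and was low, with 1.40, 3.29 and 5.09 CPM (lowest, median and highest of 8 fish) at 39 dph and 1.79, 3.98 and 9.78 at 108 dph, and it was not called (FDR = 0.32). The next, Nfu_g_1_021820, is named SYNE1, which codes for nesprin-1, a linker between the nucleus and the actin cytoskeleton. It had 345, 389 and 457 CPM at 39 dph, 242, 319 and 345 at 73 dph, and 250, 264 and 379 at 108 dph, and it fell (log2 fold change -0.47, SE 0.08, FDR = 4.7e-05 for 108 versus 39 dph). The oldest fish lay mostly under the youngest, with an overlap between 345 and 379 CPM.

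A second gene named SYNE1, Nfu_g_1_018681, had a fitted log2 fold change of -0.48 but an SE of 0.21 and was not called (FDR = 0.083). Its values were 246, 306 and 787 CPM at 39 dph and 186, 240 and 334 at 108 dph, and 39 dph female 4 stood far above all other fish of its age. With the RNA integrity number as a covariate the value was 0.38 (FDR = 0.54), of the opposite sign. Dystonin (DST), a plakin that links cytoskeletal filaments, is the name of 2 members of about 26 kb (26901 and 25926 bases). The first, Nfu_g_1_012338, had 564, 596 and 654 CPM at 39 dph and 459, 511 and 643 at 108 dph and fell (-0.21, SE 0.06, FDR = 0.0081), while the second gave 0.09 (SE 0.06, FDR = 0.27). The other 5 of the 10 were not called either: PCLO (Nfu_g_1_007978, Piccolo) at -0.18, ANK3 (Nfu_g_1_022882, ankyrin-G of the axon initial segment) at 0.09, BSN (Nfu_g_1_010339, Bassoon) at -0.07, Nfu_g_1_018557 at 0.11 and Nfu_g_1_019077 at 0.06.

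At the lower limit of length, the last 4 members were Nfu_g_1_010945, RALGAPA1, Nfu_g_1_013243 and EIF2AK4 with 11350, 11345, 11335 and 11334 bases, and their log2 fold changes between 39 and 108 dph were -0.20, -0.06, -0.05 and 0.19. The first 4 genes beyond it were Nfu_g_1_021920, CREBBP, FAM83G and CLTC with 11328, 11321, 11312 and 11310 bases, and theirs were -0.06, 0.35, -1.34 and -0.33. Length therefore fell by only a few bases from one gene to the next at this limit.

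The largest rise among named members was that of JARID2 (Nfu_g_1_004090, 12583 bases), which codes for a partner of the Polycomb repressive complex 2, the enzyme that methylates histone H3 on lysine 27. It had 154, 183 and 249 CPM (lowest, median and highest of 8 fish) at 39 dph, 786, 1017 and 1164 at 73 dph and 555, 600 and 748 at 108 dph. No fish of one age overlapped another age, and the middle age was the highest. The log2 fold change was 2.34 (SE 0.11, FDR = 1.0e-12) from 39 to 73 dph, -0.70 (SE 0.11, FDR = 0.00031) from 73 to 108 dph and 1.65 (SE 0.11, FDR = 1.0e-10) over the whole span. The last value was 1.51 (FDR = 5.2e-05) with the RNA integrity number as a covariate.

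ANKIB1 (Nfu_g_1_001740), a ubiquitin ligase of the RING-between-RING family, followed. It had 145, 170 and 228 CPM at 39 dph, 66.2, 271 and 336 at 73 dph and 209, 354 and 575 at 108 dph. It rose by a log2 fold change of 1.10 (SE 0.21, FDR = 0.00022) from 39 to 108 dph. Only the lowest fish of 108 dph, male 3, lay within the range of 39 dph. The fish at 66.2, 73 dph male 11, lay below every fish of 39 dph and was also the lowest of its age in NEUROD1 (183 CPM). In 108 dph male 11 both genes were highest for that age (575 and 1383 CPM). A link between the 2 genes was not tested. With the RNA integrity number as a covariate the FDR of ANKIB1 was 0.082. UNC80 (Nfu_g_1_003654), a subunit of the NALCN sodium leak channel that sets neuronal resting excitability, had 30.1, 37.6 and 51.7 CPM at 39 dph and 53.2, 69.9 and 118 at 108 dph. Its ranges did not overlap and it rose by 0.98 (SE 0.15, FDR = 2.6e-05). SNPH (Nfu_g_1_015502), syntaphilin, which anchors mitochondria in axons, went from 88.6, 105 and 145 CPM to 146, 161 and 180 CPM (0.58, SE 0.08, FDR = 6.3e-06). Every fish of 108 dph was above every fish of 39 dph.

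Other rises named by the same rule were those of MTHFD1L, a mitochondrial enzyme of folate metabolism (0.93, FDR = 1.6e-05), USP53 (0.69, FDR = 3.5e-05) and the zinc finger gene ZNF804A (0.60, FDR = 2.7e-05). MTHFD1L had 4.30 to 8.01 CPM at 39 dph and 9.53 to 14.5 at 108 dph, without overlap. Low genes made up the rest. AHNAK2 rose by 1.24 (SE 0.29, FDR = 0.0016) from a median of 6.48 to 14.2 CPM with overlapping ranges. SIGIRR, an inhibitor of interleukin-1 and Toll-like receptor signalling, rose by 1.08 (SE 0.39, FDR = 0.030) from a median of 1.63 to 2.13 CPM. Its rise was 2.15 in females alone and 0.08 in males alone, and leaving out any 1 of 5 fish ended the call, with an FDR of 0.074 without 39 dph female 8.

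SPTB, the beta spectrin of red blood cells, rose by 0.59 (SE 0.19, FDR = 0.014), from 5.43, 6.99 and 9.61 CPM to 5.20, 10.8 and 17.2 CPM. Of the 3 red blood cell marker genes matched, 1 rose and none fell. That gene, SLC4A1, the anion exchanger of the red cell membrane, had 82.1, 122 and 161 CPM on average at the successive ages, and the summed level of the list was 99.98 to 127 CPM at 39 dph and 187 to 221 at 108 dph. Whether red cells had a part in the rise of SPTB was not tested.

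**Figure D4:**
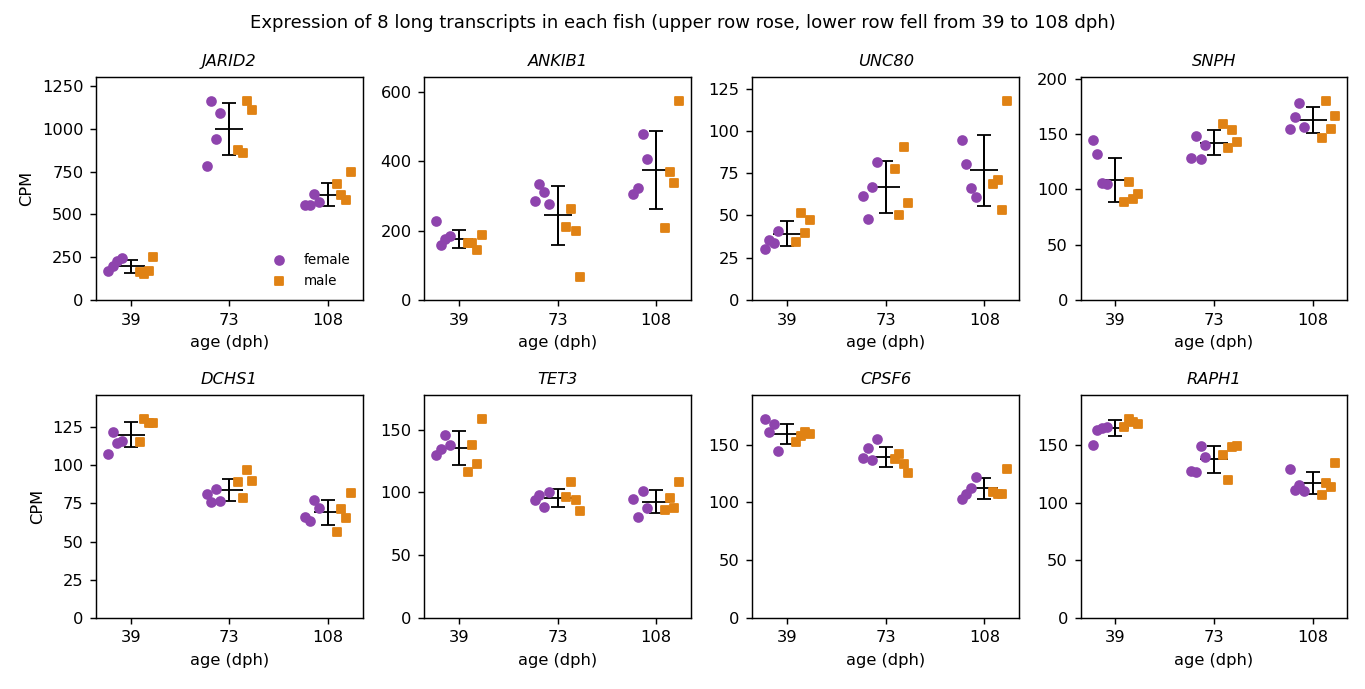
CPM (vertical axes, from 0) of 8 long transcripts in each fish against age in dph, with JARID2, ANKIB1, UNC80 and SNPH in the upper row and DCHS1 (Nfu_g_1_022204), TET3, CPSF6 and RAPH1 in the lower (circles, females; squares, males; bars, mean and SD of 8 fish). JARID2 was highest at 73 dph, where its lowest fish had 786 CPM, and the 4 genes of the lower row had no fish of 108 dph within the range of 39 dph.

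Among falls, the clearest were in DCHS1, the human name of 2 members. Dachsous 1 is a giant cadherin that binds Fat cadherins and acts in planar cell polarity and in neuronal progenitors. Nfu_g_1_022204 had 108, 119 and 130 CPM at 39 dph, 75.8, 82.6 and 96.9 at 73 dph, and 55.9, 68.7 and 81.7 at 108 dph. Both older ages lay below the youngest without overlap, and it fell at each step (-0.52, FDR = 5.2e-06, then -0.28, FDR = 0.0099) and by 0.79 in all (SE 0.07, FDR = 2.7e-09). Nfu_g_1_000311 had 19.8, 22.1 and 26.9 CPM at 39 dph and 12.5, 13.8 and 17.3 at 108 dph, also without overlap (-0.68, SE 0.10, FDR = 1.0e-05). Both stayed called with the RNA integrity number as a covariate (FDR = 0.00083 and 0.019).

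TET3 (Nfu_g_1_009247), a dioxygenase that oxidizes methylated cytosine in DNA, had 116, 136 and 159 CPM at 39 dph and 80.4, 91.2 and 108 at 108 dph (-0.55, SE 0.07, FDR = 7.5e-07). CPSF6 (Nfu_g_1_011864), a subunit of cleavage factor I in the 3′ processing of messenger RNA, went from 144, 160 and 172 CPM to 103, 108 and 129 CPM (-0.51, SE 0.05, FDR = 4.3e-08). RAPH1 (Nfu_g_1_008632), lamellipodin, a regulator of actin at the leading edge of cells, went from 150, 166 and 173 CPM to 106, 115 and 134 CPM (-0.49, SE 0.05, FDR = 1.9e-07). In all 3 genes every fish of 39 dph was above every fish of 108 dph. TET3 reached its low level at 73 dph (-0.50, FDR = 1.0e-05 for the first step), whereas CPSF6 fell in both steps (-0.19, FDR = 0.0075 and -0.31, FDR = 0.00044).

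The largest fall of a named member in fitted size was that of SPEG (Nfu_g_1_014306), a kinase known from striated muscle, from 15.3, 20.5 and 23.5 CPM to 5.63, 9.29 and 16.9 CPM (-0.99, SE 0.21, FDR = 0.00050). Its fall was not called with the RNA integrity number as a covariate (FDR = 0.23). FAM198A fell by 0.81 (SE 0.20, FDR = 0.0022), from a median of 17.0 to 10.1 CPM. The homeobox gene ZFHX3 (Nfu_g_1_008414) fell by 0.48 (FDR = 0.00017) and MCF2L2, a guanine nucleotide exchange factor, by 0.47 (FDR = 0.0011).

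Ordered by role, 97 of the 180 named members belonged to one of 7 lists, whose genes all carry a human name, and no member belonged to a list of cell division genes, where 4 of the 21 genes tested rose and 15 fell. Of all genes with a human name, 28.6% rose and 28.6% fell, and the counts of the lists stand beside that background. In the cytoskeleton list 2 of 16 members rose, 4 fell and 10 were not called, beside 9 rises and 8 falls among the 47 shorter genes of that list. AKAP9, an anchor of protein kinase A at the centrosome, rose by 0.30 (FDR = 9.1e-05), while NAV3 (a neuron navigator that binds microtubules) and SPTBN1 (beta-II spectrin) fell by 0.33 (FDR = 0.00023) and 0.28 (FDR = 0.0037). The motor subunit DYNC1H1 and the spectrin SPTAN1, at 701 and 637 CPM on average at 108 dph, gave -0.00 and -0.05 with an SE of 0.04 each.

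The synaptic list had 10 members, of which 2 rose and 2 fell, beside 9 rises and 10 falls among its 47 shorter genes. ANKS1A, an adaptor of Eph receptors, rose by 0.38 (FDR = 0.0025). TRIO (Nfu_g_1_012957), a guanine nucleotide exchange factor of axon growth, rose by 0.19 (FDR = 0.026). That call was lost in 2 of the 24 fits that left out 1 fish, with an FDR of 0.064 without 108 dph male 5. A second member named TRIO, Nfu_g_1_001792, gave -0.18 (SE 0.20, FDR = 0.50). UNC13A, which primes vesicles for release, fell by 0.33 (FDR = 0.026), from 123, 152 and 183 CPM to 87.1, 115 and 170 CPM. A second gene for Piccolo, PCLO (Nfu_g_1_011931), fell by 0.25 (FDR = 0.037). The falls of these 2 genes were weakly held: UNC13A was called in 17 and PCLO in 12 of the 24 fits that left out 1 fish, with an FDR of 0.066 without 108 dph female 10 and of 0.095 without 108 dph male 9. Neither was called without the 2 shallowest libraries. With the RNA integrity number as a covariate 0 members of this list rose and 0 fell. Neuronal markers changed over the same span, 7 of 14 lower and 3 higher, and their part in this list was not tested.

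Of 13 ion channels and receptors 3 rose and 1 fell, against 8 rises and 15 falls among the 41 shorter genes of that list. CACNA1B (Nfu_g_1_019743), the pore of N-type calcium channels that trigger transmitter release, had 235, 260 and 305 CPM at 39 dph and 285, 318 and 363 at 108 dph (0.31, SE 0.06, FDR = 0.00043). CACNA1D, the pore of an L-type calcium channel, rose by 0.28 (FDR = 0.00093), and KCNMA1, the calcium-activated BK potassium channel, by 0.33 (FDR = 0.0023). All 3 had overlapping ages. The latrophilin ADGRL3 fell by 0.18 (FDR = 0.022), and its FDR was 0.055 without 39 dph female 4.

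Adhesion and matrix genes fell more often than they rose. Of 21 members 9 fell, 2 rose and 10 were not called, and among the 50 shorter genes of the list 15 fell and 7 rose. The median log2 fold change of the members was -0.15, beside -0.03 over the 300 and -0.00 over all genes tested. Besides both DCHS1 genes, the members that fell were both FAT3 genes (-0.24 and -0.39), CELSR3, LAMA2, CSMD2, AGRN and PTPRF. CELSR3 (Nfu_g_1_010387), a planar polarity cadherin of axon guidance, had 47.6, 49.5 and 55.6 CPM at 39 dph and 33.1, 37.9 and 44.2 at 108 dph, without overlap (-0.40, SE 0.06, FDR = 5.2e-06). LRP2, the endocytic receptor megalin, rose by 0.53 (FDR = 0.00056) and the receptor phosphatase PTPRS by 0.22 (FDR = 0.0058). Without the 2 shallowest libraries 9 fell and 3 rose, and with the RNA integrity number as a covariate 4 fell and 1 rose.

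Markers of endothelium and meninges fell over the same span, and were not compared with this list fish by fish. All 4 genes matched, 2 each for COL1A2 and PECAM1, fell between 39 and 108 dph. Their summed level was 89.5 to 884 CPM at 39 dph and 52.7 to 105 at 108 dph. COL1A2 (Nfu_g_1_013298), a fibrillar collagen, had 15.4 to 371 CPM at 39 dph and 5.74 to 27.9 at 108 dph. The part of such cells in the falls of this list was not tested.

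Chromatin and transcription genes moved both ways, with 3 rises and 6 falls among 15 members and 20 rises and 23 falls among the 75 shorter genes of the list. KMT2A, a methyltransferase for lysine 4 of histone H3, had 72.6, 85.8 and 101 CPM at 39 dph and 101, 113 and 126 at 108 dph (0.41, SE 0.06, FDR = 9.4e-06), while KMT2C of the same family fell by 0.21 (FDR = 0.0018). The remodeller CHD9 rose by 0.32 (FDR = 1.6e-05), from 117, 132 and 138 CPM to 150, 159 and 178 CPM without overlap. CHD5, another remodeller, fell by 0.43 (FDR = 2.4e-05), from 65.2, 70.8 and 83.7 CPM to 44.6, 53.3 and 65.4 CPM. Genes of one family thus moved in opposite directions in this fit. With the RNA integrity number as a covariate 1 member of this list rose (KMT2A) and 2 fell (TET3 and CHD5). CHD9 was then not called (FDR = 0.054).

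Ubiquitin ligases and proteins of membrane traffic gave 3 rises and 6 falls among 16 members, beside 15 rises and 8 falls among the 34 shorter genes of the list. The ligases HECW1, UBR4 and BIRC6 fell by 0.35 (FDR = 0.00012), 0.29 (FDR = 0.00019) and 0.35 (FDR = 0.00046). Of the 3 members that rose, RNF213 did so by 0.53 (FDR = 0.00046) and LYST by 0.30 (FDR = 0.0010). With the RNA integrity number as a covariate 3 members of this list rose and 0 fell. The falls of HECW1, UBR4 and BIRC6 were then not called (FDR = 0.17, 0.15 and 0.19). Without the 2 shallowest libraries 3 members rose and 4 fell. Among 6 large kinases and DNA repair genes, ATM, the kinase that senses DNA double-strand breaks, rose by 0.25 (FDR = 0.0056). WNK1 and WNK3, kinases of ion transport, rose by 0.22 (FDR = 0.0029) and 0.20 (FDR = 0.0045). REV3L, the catalytic subunit of the translesion polymerase zeta, fell by 0.31 (FDR = 0.0012).

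Fish genomes hold many duplicated genes, and 13 human names were each shared by 2 members. Both copies rose in SPEN and both fell in DCHS1 and FAT3. One copy of the pair was called for 7 names, neither for 3 (ANK3, BSN and LRP1), and for none were the copies called in opposite directions. SPEG shows the range: Nfu_g_1_014306, at a median RPKM of 0.885, fell by 0.99, whereas Nfu_g_1_003650, at 16.2 RPKM, gave 0.07 (SE 0.11, FDR = 0.65). Reads were placed at 1 site each by the mapper, so copies with near-identical stretches may have exchanged reads.

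The strongest fitted changes of members without a human name were picked after their values were seen. Nfu_g_1_002766 had the largest fall of all 300 (-2.39, SE 0.78, FDR = 0.017), but it rested on 2 fish of 39 dph, male 5 with 74.2 and female 12 with 65.3 CPM, while the other 6 had 3.66 to 7.91 and the fish of 108 dph 3.08 to 5.72. Its FDR was 0.17 without male 5 and 0.058 without female 12, and 73 dph female 8 had 76.0 CPM as well. Nfu_g_1_011746 rose by 1.03 (SE 0.23, FDR = 0.0011), from 4.77 to 9.72 CPM at 39 dph to between 8.89 and 37.5 at 108 dph.

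Females and males are different animals, so each sex gives its own reading of the change with age. Between 39 and 108 dph 91 long transcripts were called in the 12 females alone (48 higher, 43 lower, where 23.8% of all genes tested in females were called) and 66 in the 12 males alone (39 higher, 27 lower, where the background was 19.1%). Of the 300, 240 had the same sign in both sexes, or 80.0%, beside 77.8% of all genes tested in both. Of the 91 called in females 89 had the same sign in males, and of the 66 called in males 63 had the same sign in females. All 42 called in both sexes agreed in direction. Over all genes these counts were 4322 of 4486, 3485 of 3593 and 2336 of 2337, so the long transcripts stood close to the background.

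**Figure D5:**
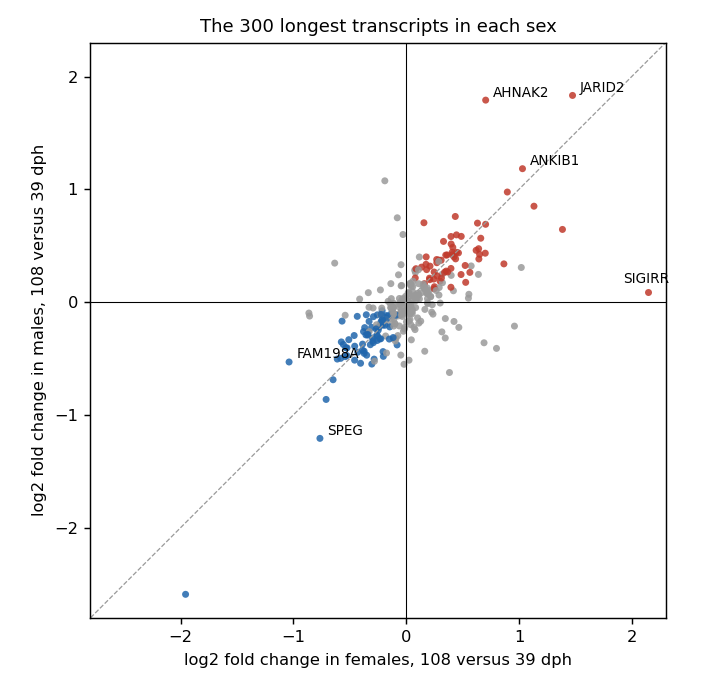
Log2 fold change between 39 and 108 dph in males (vertical axis) against that in females (horizontal axis) for the 300 longest transcripts, coloured red or blue where called higher or lower in both sexes together. Of the 300, 240 had the same sign in both sexes, and SIGIRR, at 2.15 in females and 0.08 in males, lay far from the dashed line of equal change.

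No long transcript differed between females and males across the ages, and none differed in its age course between the sexes, by edgeR's quasi-likelihood F test. The lowest FDR was 0.44 for sex, where 0.0517% of all genes tested were called, and 0.88 for the sex by age interaction, where 0.00517% were called. At an unadjusted p under 0.05 there were 18 members for sex and 16 for the interaction, beside 7.46% and 5.35% of all genes tested. DESeq2 was not run for these 2 tests.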

How the data were processed

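Poly(A) RNA of 24 brains was sequenced. The deposited counts are the authors' reads per gene: the submitters' processing notes name bcl2fastq 1.8.4, TopHat2 2.1.0 and featureCounts 1.5.0, and the methods give the hardmasked NFINgb assembly, at most 1 place per read and counting by strand. The authors' deposited RPM values are counts scaled to the total of assigned reads, and the deposited RPKM values are RPM per kilobase of gene length. RPM equalled scaled counts within 4.91e-11.

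The members, lists and tests were chosen with earlier results of these data known. Tests on the counts used edgeR 4.0.16 under R 4.3.3 (TMM, filterByExpr with a minimum count of 10, additive model of sex and age over all 24 fish), with Benjamini-Hochberg adjustment over 19358 genes and an FDR threshold of 0.05. Each sex alone and a sex by age interaction were fitted likewise. Log2 CPM used a prior count of 2. SE is the log2 fold change divided by the square root of F. The fit was checked on simulated data.

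Named were the 10 longest members, 4 genes on each side of the length limit, the 10 largest rises and falls among members with a human name (called, same sign in both sexes, called without each of the 2 shallowest libraries), and up to 4 members of each list by FDR, which made 61 genes. Of these, 1 gene is not reported here. Genes described beside them to complete a list or a pair were added after their values were seen. Human names came from the study's supplementary tables. RNA integrity numbers came from there too, as a covariate only. The gene IDs were not matched to the reference table used here, and no sequence was printed. Alternatives were DESeq2 1.42.0, other scalings, filters, models and member numbers, and each fish left out.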

Additional observations from a re-analysis of the deposited data

Results flagged for a closer look

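Among 354 groups of 4 fish that were checked for a fish standing apart from the other 3, 19 had one by Dixon's criterion, where chance gives about 1 in 20, or 17.7. Values follow as CPM unless stated, with the range of the other 3 fish of the group.

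The difference between long and paired middle-length transcripts was -0.00973 in 108 dph female 6 and 0.037 to 0.0464 in the others. The longest gene, Nfu_g_1_019261, had 17.18 in 73 dph female 6 (3.115 to 4.317). Nfu_g_1_018557 had 5.731 in 108 dph female 10 (1.147 to 1.791) and 8.202 in 108 dph male 5 (1.512 to 2.629). SYNE1 (Nfu_g_1_018681) had 786.6 in 39 dph female 4 (290.4 to 309.0), 589.2 in 73 dph female 4 (226.2 to 263.6) and 295.1 in 73 dph male 1 (231.1 to 234.7).

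JARID2 had 249.3 in 39 dph male 11 (154.3 to 170.3). ZNF804A was low at 72.1 in 73 dph male 11 (123.6 to 130.9), and FAM198A was high in the same fish at 24.16 (10.4 to 12.68). SPTB had 15.25 in 73 dph female 4 (8.415 to 9.144). CPSF6 had 128.8 in 108 dph male 11 (106.9 to 108.6), MCF2L2 27.54 in 108 dph female 6 (17.23 to 18.43) and SPTBN1 268.8 in 108 dph female 2 (205.7 to 211.9).

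In 39 dph female 4 ANKS1A had 61.8 (44.68 to 46.81) and TRIO (Nfu_g_1_012957) 300.2 (324.2 to 327.8). PCLO (Nfu_g_1_011931) had 238.4 in 39 dph male 11 (194.7 to 200), CHD9 173.0 in 108 dph female 2 (155.2 to 158.1) and UBR4 149.9 in 39 dph male 3 (178.9 to 181.3).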

How the results depend on the processing

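The median log2 fold change of the long transcripts in the 3 comparisons, and the change from 39 to 108 dph of their level against paired middle-length genes, moved by less than the SD between fish under every alternative run. That SD was 0.0375 for the long transcripts taken alone and 0.0404 for their difference from the paired genes. The values themselves are smaller than these SDs, so staying within them does not show that a sign or size held. The counts of called members moved by over 1.5 times in the following cases. With the RNA integrity number as a covariate 22 rose and 14 fell between 39 and 108 dph, 18 and 6 between 39 and 73 dph, and 6 and 8 between 73 and 108 dph. At an FDR of 0.01 the counts were 22 and 17 for the first step and 3 and 7 for the second. Leaving out 1 fish gave 15 to 29 falls in the second step, the lowest without 73 dph male 7. For these counts by step, the share of all genes called in the same fit is not given here. With library totals alone as scaling 70 rose and 63 fell over the whole span, and without the 2 shallowest libraries 64 and 59, where 62 and 72 were reported, so the balance of rises and falls depends on these choices. Of all genes tested 37.7% and 35.2% were called in these fits, where 38.0% were reported.

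With fish number as a replicate block 47 rose and 53 fell over the whole span, all 100 among the 134, 26 rose in the first step, and 3 rose and 1 fell in the second. Over the whole span that fit called 33.3% of the long transcripts and 28.3% of all genes tested. For the single steps, its share of all genes called and its falls in the first step are not given here. No source says that a number marks a shared origin. The median correlation of their deviations from the group means was 0.0491 in 15 pairs and -0.0104 in 81 differently numbered pairs, and 4 of the 15 and 13 of the 81 exceeded 0.1. For the members named above no called change reversed direction under any alternative.

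Counting depth limits SIGIRR and other members under about 10 CPM, and the libraries of 39 dph female 12 and male 11. AHNAK2, at a median RPM of 12.4, had a biological coefficient of variation of 0.384 between fish.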
